A study of Mus musculus with 2 samples.

Results

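The nuclear genes for the respiratory chain and the ATP synthase were followed by complex in sorted mouse lymphoid progenitors. Members were the genes of the deposited matrices whose symbol starts with Nduf, Sdh, Uqcr or Atp5, or belongs to the Cox4i, Cox5, Cox6, Cox7 or Cox8 subunit families. This gave 95 of 27998 genes: 45 with complex I names, 8 for complex II, 8 for complex III, 17 for complex IV and 17 for complex V. By role, 84 are listed as subunits and 11 as assembly factors (the Ndufaf and Sdhaf genes), and 1 Cox6 gene was not analysed here. The names are not a perfect guide to function. Ndufa4 carries a complex I name but is a cytochrome c oxidase subunit, Ndufab1 is also the mitochondrial acyl carrier protein, Cox7a2l is a supercomplex factor, and Atp5s and Atp5sl do not encode structural ATP synthase subunits.

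The study compared α4β7-expressing lymphoid progenitors (αLPs) of wild-type B6 mice from 2 tissues, the fetal liver at embryonic day 14.5 and the adult bone marrow. Cells were sorted as lineage-negative, CD45+, CD127+, Flt3-, α4β7+ and CD25-, no treatment was given, and each tissue was 1 library of 3' single-cell RNA. One label gives both samples the age of adult mice, the fetal liver sample too, and the design text was followed here. How many animals were pooled is not given in the sources used here. Age, tissue and library therefore differ together and cannot be told apart. There is no replicate, so no test between tissues was possible, and every interval below is a 95% interval that covers counting error only.

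After removing cells with under 500 genes or over 10% mitochondrial unique molecular identifiers (UMIs), 8583 fetal liver and 7258 bone marrow cells were kept, with 19 cell barcodes shared between the libraries. The fetal liver cells had a median of 9294 UMIs and the bone marrow cells 3447.5, a 2.70-fold gap in depth. Levels are given first for fetal liver and then for bone marrow, as UMIs of a gene per 1000000 UMIs of the library (CPM). Genes of the sorting markers were measured in both: Il7r (CD127) at 178 and 417 CPM, Itga4 at 172 and 262 CPM and Itgb7 at 47.9 and 61.8 CPM, while Flt3 had only 132 and 36 UMIs. The 4 hepatocyte genes summed to 2.80 and 3.67 CPM, and Alb and Ttr were at 0 in bone marrow. The 6 erythroid genes summed to 188 and 21.2 CPM, and the 6 myeloid genes to 125 and 15.1 CPM. Xist was at 252 and 0.0668 CPM, and the Y-linked Ddx3y, Uty, Eif2s3y and Kdm5d together had 4683 and 4725 UMIs. These are counts out of 91285900 and 29941097 kept UMIs, so the Y-linked share was lower in fetal liver. The fetal liver library thus held transcripts of both kinds and bone marrow almost no Xist, so the sex of the animals also cannot be told apart from the tissue. Among the members, Ndufa1, Ndufb11 and Cox7b lie on the X chromosome.

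Oxidative phosphorylation passes electrons from NADH through complex I, or from succinate through complex II, to ubiquinone, then through complex III and cytochrome c to complex IV, which reduces oxygen. Complexes I, III and IV pump protons across the inner mitochondrial membrane, and complex V uses the gradient to make ATP. Most subunits are made from nuclear genes and imported, complex II entirely so, and a small set of core subunits of the other complexes is encoded by the mitochondrial genome. Dividing lymphoid cells are known to build mitochondria as they grow, and resting lymphocytes to keep a low mitochondrial mass. Levels here are CPM over all kept cells of a library. Since 3' tags are counted once per molecule and were not divided by gene length, levels are compared between libraries and not between genes.

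Each of the 5 complexes had a higher summed level in fetal liver than in bone marrow. All 95 members together made up 42005 and 31739 CPM, which is a log2 ratio (fetal liver over bone marrow throughout) of 0.40 (0.40 to 0.41), or 1.32-fold. By gene name and over all cells, complex V had the largest ratio of summed levels, with 11864 against 8589 CPM (log2 ratio 0.47, 0.46 to 0.47). Complex I followed with 13476 against 9957 CPM (0.44, 0.43 to 0.44) and complex IV with 11225 against 8607 CPM (0.38, 0.38 to 0.39). Complex II had 650 against 505 CPM (0.36, 0.34 to 0.39) with its assembly factors counted, but 0.62 by its 4 subunits alone, above complex V. Complex III had the smallest ratio, with 4790 against 4080 CPM (0.23, 0.22 to 0.24). In single cells, a median of 4.17% of a fetal liver cell's UMIs fell on members (quartiles 3.78% and 4.54%), against 2.90% in bone marrow (2.55% and 3.34%), so the upper quartile of bone marrow lay below the lower quartile of fetal liver.

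The difference was broad and shallow rather than carried by a few genes. Of the 95 members, 88 reached 10 CPM in at least 1 library, and 82 of these 88 were higher in fetal liver, where 50.6% of all 6938 genes at that level were. The median log2 ratio of the 88 was 0.48, against 0.01 for all 6938 genes. Members are mostly well-expressed genes, and among genes of at least 100 CPM the medians were 0.50 for 71 members and 0.26 for all 1420 genes. A 1.5-fold excess in fetal liver was reached by 27 of the 88 members, against 19.2% of all genes. At 100 CPM or more it was reached by 23 of 71 members against 25.4% of genes, and at 200 CPM or more by 18 of 62 against 25.8%. None of the 88 was 1.5-fold higher in bone marrow, against 23.2% of all genes, 15.8% of those of at least 100 CPM and 13.7% of those of at least 200 CPM. The 6 members that were lower in fetal liver were Sdhaf1, Sdhaf3, Sdhaf4, Uqcrh, Cox6b2 and Cox7a2l.

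**Figure D1:**
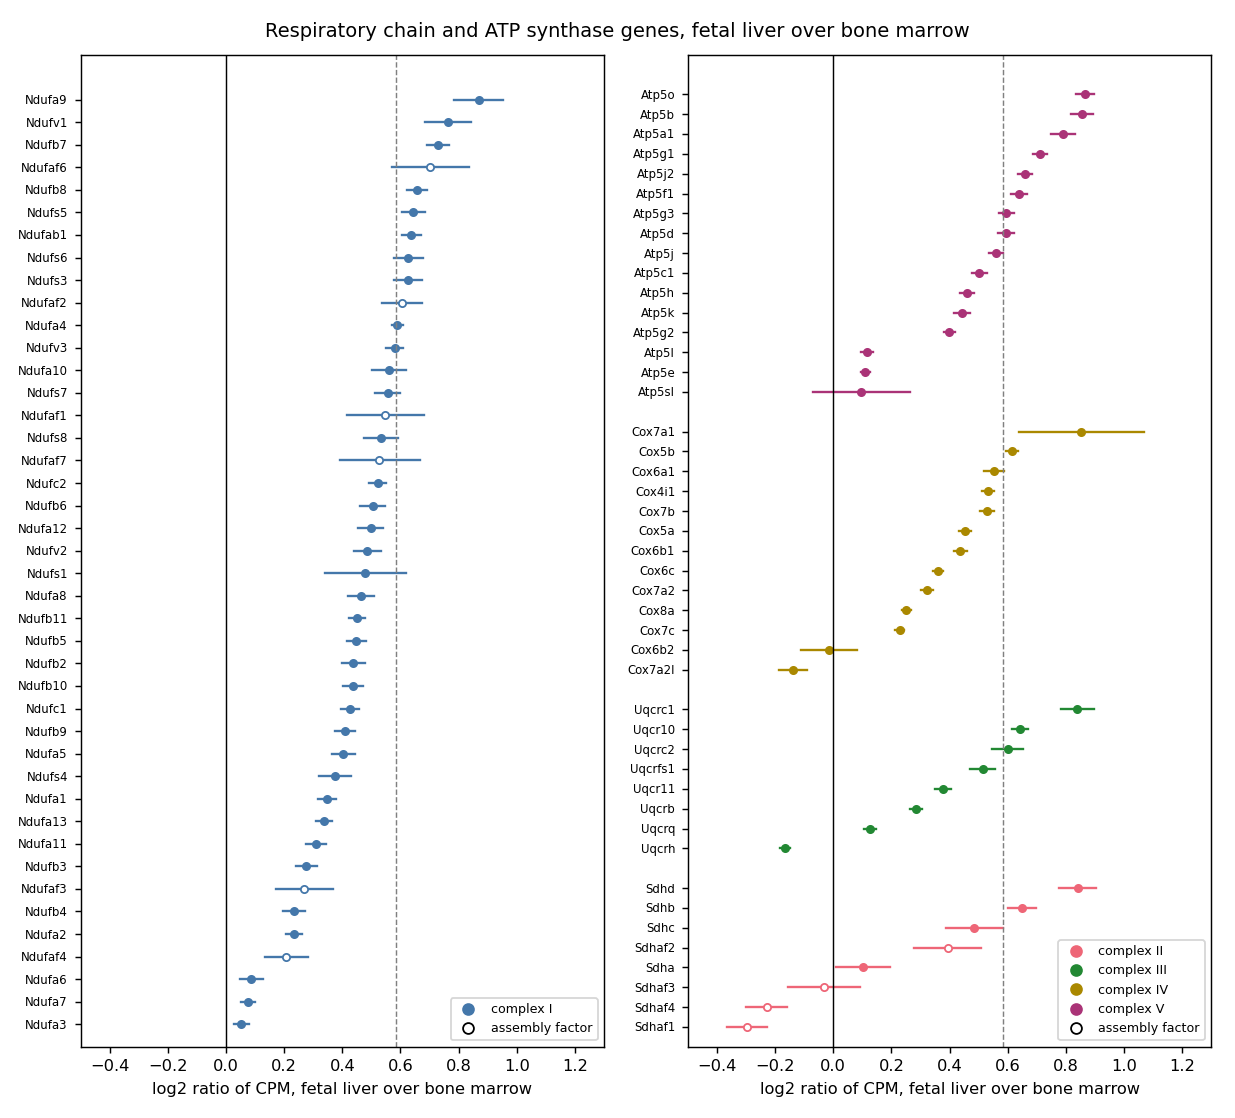
Log2 ratio of CPM, fetal liver over bone marrow, for 87 of the 88 members with at least 10 CPM (horizontal axis), grouped by complex; bars are 95% counting intervals, open points are assembly factors, and the dashed line marks a 1.5-fold excess. The 42 complex I and 16 complex V genes shown lie to the right of 0, and the 3 lowest points are Sdhaf1, Sdhaf4 and Uqcrh.

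In complex I, the 7 core subunits that carry the flavin, the iron-sulfur clusters and the quinone site summed to 1050 and 688 CPM (log2 ratio 0.61, 0.59 to 0.63), while the other subunits had a log2 ratio of 0.42 (0.42 to 0.43). Ndufv1, which binds NADH and the flavin, had 88.4 and 52.1 CPM (0.76, 0.68 to 0.84). The core genes Ndufs3, Ndufs7, Ndufs8, Ndufv2 and Ndufs1 had log2 ratios of 0.63, 0.56, 0.53, 0.49 and 0.48. Ndufa9, an accessory subunit near the quinone site, had 81.6 and 44.7 CPM (0.87, 0.79 to 0.95). At the other end stood 3 accessory subunits: Ndufa3 with 554 and 534 CPM (0.05), Ndufa7 with 597 and 567 CPM (0.08) and Ndufa6 with 243 and 229 CPM (0.09). The X-linked Ndufa1 and Ndufb11 had log2 ratios of 0.35 and 0.45, inside the range of the other complex I genes.

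In complex II, the summed subunits were higher in fetal liver, and the summed assembly factors were slightly lower by CPM over all cells. The 4 subunits summed to 464 and 302 CPM (log2 ratio 0.62, 0.59 to 0.66). Sdhd, a membrane anchor, had 140 and 78.2 CPM (0.84), Sdhb, the iron-sulfur subunit, 231 and 147 CPM (0.65), and Sdhc, the other anchor, a ratio of 0.48. Sdha, the flavoprotein, differed least of the 4, with 43.6 and 40.6 CPM (0.10, 0.01 to 0.20). The 4 assembly factors summed to 185 and 204 CPM (-0.14, -0.18 to -0.09), a sign that depends on the scaling: it was 0.03 with a median-ratio factor and close to 0 with TMM. Sdhaf1 and Sdhaf4 had log2 ratios of -0.30 and -0.23 and stayed negative under both scalings, Sdhaf3 had -0.03 and turned positive under both, and Sdhaf2, which adds the flavin to Sdha, had 0.39. The value of Sdhaf1 depended on the cells compared. It was -0.004 in low cycling cells (without division genes, defined below) and 0.71 in those of 4000 to 8000 UMIs.

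In complex III, the core subunits were higher in fetal liver and the small hinge subunit was not. Uqcrc1 had 178 and 99.3 CPM (log2 ratio 0.84, 0.78 to 0.90) and Uqcrc2 172 and 113 CPM (0.60), and both encode core proteins. Uqcrfs1, the Rieske iron-sulfur protein, had 268 and 188 CPM (0.51). The small subunits spread widely, from Uqcr10 at 0.64 and Uqcr11 at 0.38 to Uqcrb at 0.28 and Uqcrq at 0.13. The sign of Uqcrq depended on the cells compared: it was -0.07 in low cycling cells (without division genes, defined below) and -0.32 in cells of 4000 to 8000 UMIs (786 and 979 CPM), a range chosen after the data had been seen. Uqcrh, the hinge protein, had 1031 CPM against 1157 CPM in bone marrow (-0.17, -0.18 to -0.15), and this shrank to between -0.03 and 0.00 with the TMM and median-ratio factors. The median ratio of the 8 members of the complex was 0.45, above the ratio of their sum, in which Uqcrh weighs heavily.

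In complex IV, the ubiquitous isoforms were moderately higher in fetal liver. Cox5b had 1082 and 707 CPM (log2 ratio 0.62), Cox6a1 405 and 276 CPM (0.55), Cox4i1 1050 and 726 CPM (0.53) and the X-linked Cox7b 829 and 575 CPM (0.53). Cox7c and Cox8a differed less, with 1470 against 1255 CPM (0.23) and 1820 against 1529 CPM (0.25). Cox7a2l had 138 and 152 CPM (-0.14, -0.19 to -0.09), a sign that turned under the median-ratio factor, and Cox6b2, known mainly from testis, had 38.5 and 38.9 CPM (-0.02, -0.11 to 0.08). Among cells of 4000 to 8000 UMIs, Cox6b2 had 20.9 and 44.5 CPM (-1.09). Ndufa4, counted above by its name with complex I, had 1428 and 949 CPM (0.59). Counting subunits only and moving Ndufa4 to complex IV gave log2 ratios of 0.42 for complex I and 0.40 for complex IV.

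In complex V, the 3 largest ratios belonged to the catalytic head and the stalk that holds it. Atp5o, the oligomycin sensitivity protein of the peripheral stalk, had 570 and 313 CPM (log2 ratio 0.87, 0.83 to 0.90), the catalytic beta subunit Atp5b 407 and 225 CPM (0.85, 0.82 to 0.89) and the alpha subunit Atp5a1 323 and 187 CPM (0.79, 0.75 to 0.83). The other head genes Atp5d, Atp5c1 and Atp5e had log2 ratios of 0.59, 0.50 and 0.11. By part, the peripheral stalk genes summed to a log2 ratio of 0.61, the c ring genes to 0.54, the small membrane subunits to 0.38 and the head to 0.37, the last held down by Atp5e with 1729 and 1601 CPM. Atp5l, a membrane subunit, had 908 and 838 CPM (0.12).

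A feature that the choice of genes did not use was transcript length, taken as the median over the annotated principal transcripts of a gene. Over the 78 subunits with at least 10 CPM, the log2 ratio rose with the transcript length of the annotation, with Spearman's rho 0.36 and Pearson's r 0.30 across genes, which share the same 2 libraries and are not replicates. With the assembly factors included, rho was 0.21 and r 0.11 over 88 members, and rho over 6798 genes of all kinds was -0.37. The 26 shortest subunits (371 to 642 bases) had a median ratio of 0.35, the 26 in the middle 0.48 and the 26 longest (1110 to 3171 bases) 0.59. All genes in the same 3 ranges of length had medians of 0.14, 0.29 and 0.20, without that order.

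The promoters of the members were searched for cores of 3 factors known to control respiratory genes, since so many members moved together. RefSeq promoters (GRCm38.p6, from 250 bases before to 50 after the start) were at hand for 80 of the 95 members, 86 promoters in all. The NRF1 core GCGCATGC, read on both strands, was found in 13.95% of these, against 2.71% of all 32851 promoters and 6.00% of the 7189 promoters of genes with at least 10 CPM. The YY1 core AAGATGGC was also found in 13.95%, against 2.75% of all and 5.22% of the promoters of expressed genes. The ETS or GABP core CCGGAAGT was found in 5.81%, against 3.89% and 9.68%. No member held both the NRF1 and the YY1 core, and 22 of the 76 with a promoter and at least 10 CPM held 1 of them. The windows of members with contrasting ratios are printed here from the gene's strand, 5′ to 3′, with the core or its reverse complement in capitals.
Uqcrc1, NRF1 core: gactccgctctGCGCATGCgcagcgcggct
Sdhb, NRF1 core: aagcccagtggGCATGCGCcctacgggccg
Cox6a1, NRF1 core: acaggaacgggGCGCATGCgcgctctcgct
Atp5g2, NRF1 core: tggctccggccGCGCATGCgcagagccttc
Ndufa6, NRF1 core: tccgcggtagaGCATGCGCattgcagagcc
Ndufa9, YY1 core: cattgtgggagAAGATGGCggccgccgtcc
Ndufs7, YY1 core: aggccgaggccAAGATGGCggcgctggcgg
Atp5j2, YY1 core: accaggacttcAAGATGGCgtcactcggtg
Ndufa3, YY1 core: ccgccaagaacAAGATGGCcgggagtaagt

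These windows lie at chr9:108936667-108936696 on the plus strand for Uqcrc1, chr4:140961206-140961235 (plus) for Sdhb, chr5:115349102-115349131 (minus) for Cox6a1, chr15:102671071-102671100 (minus) for Atp5g2 and chr15:82354356-82354385 (minus) for Ndufa6. Those with the YY1 core lie at chr6:126849097-126849126 (minus) for Ndufa9, chr10:80249462-80249491 (plus) for Ndufs7, chr5:145191500-145191529 (minus) for Atp5j2 and chr7:3617384-3617413 (plus) for Ndufa3. Taking the first match in each promoter, it lay upstream of the start in 10 of the 12 promoters with the NRF1 core. With the YY1 core it lay downstream of the start in 9 of 12 promoters and read in the direction of the gene in 11 of 12, with Atp5sl counted in a pair of overlapping promoters. Holding a core went with little difference in the ratio. The median log2 ratio was 0.40 for 11 members with the NRF1 core and 0.50 for 65 without, and 0.56 for 11 with the YY1 core and 0.46 for 65 without. Ndufa9 (0.87) and Ndufa3 (0.05), near the opposite ends of complex I, both hold the YY1 core, and Uqcrc1 (0.84) and Ndufa6 (0.09) both hold the NRF1 core. A match of letters is a description and does not show that a factor binds.

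Over all cells, the 13 mitochondrially encoded subunits did not follow the nuclear ones. They summed to 28616 and 31464 CPM (log2 ratio -0.14, -0.14 to -0.13), which became 0.02 with the median-ratio factor and 0.00 with TMM. By complex, the nuclear and mitochondrial parts differed most for complex IV, whose 3 mitochondrial genes had 12974 and 16302 CPM (-0.33) beside 0.38 for its nuclear genes. mt-Co1, the catalytic subunit, had 5015 CPM against 7580 CPM in bone marrow (-0.60) and stayed lower under both scalings. The mitochondrial genes of complex V had a ratio of -0.19 and those of complex I 0.03, and mt-Cytb, the only one of complex III, was higher in fetal liver, with 4807 and 3877 CPM (0.31). In dividing cells (defined below) of 4000 to 8000 UMIs, the mitochondrial sum had a ratio of 0.14, beside 0.13 for all nuclear members. In low cycling cells of that range it had 0.03, beside 0.39.

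Within a library, the nuclear level per mitochondrial level does not depend on the scaling. For complexes I, III, IV and V together it was 1.45 in fetal liver and 0.993 in bone marrow. By complex it was 2.82 and 1.79 for complex V, 2.03 and 1.54 for complex I and 0.865 and 0.528 for complex IV, but 0.996 and 1.05 for complex III. The filter on mitochondrial UMIs moved it little: with at most 5% the summed values were 1.49 and 1.01, and with no limit 1.42 and 0.988. It changed more with the cells compared. In cells of 2000 to 4000 UMIs, all members and the mitochondrial genes had 40954 and 44889 CPM in fetal liver, and 29048 and 33016 CPM in bone marrow. In dividing cells of 4000 to 8000 UMIs they had 42948 and 32947 CPM, and 39330 and 29924.5 CPM, so the libraries hardly differed in it. In low cycling cells of that range they had 39814 and 32414 CPM, and 30387 and 31667 CPM.

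**Figure D2:**
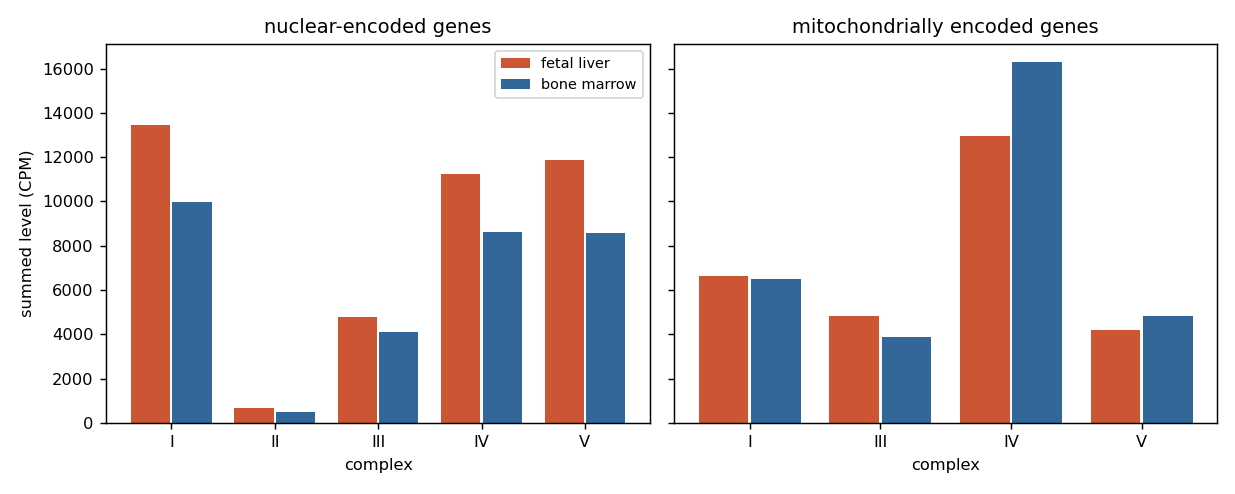
Summed level (CPM, from 0) of the nuclear-encoded genes of each complex (left) and of the mitochondrially encoded genes (right), with 1 bar per library. The nuclear bars are taller in fetal liver for all 5 complexes, while the mitochondrial complex IV bar is taller in bone marrow (16302 against 12974 CPM).

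Other genes of the same pathway were compared by the same measure. Of the electron carriers, Cyc1, the cytochrome c1 of complex III, had 182 and 99.8 CPM (log2 ratio 0.87) and Cycs, cytochrome c, 662 and 443 CPM (0.58). All 16 genes of the TCA cycle and pyruvate dehydrogenase passed 10 CPM, with a median of 0.57. Their largest ratios were those of Fh1, fumarase, at 101 and 47.7 CPM (1.09), and Mdh2, malate dehydrogenase, at 349 and 200 CPM (0.81). Ogdh went the other way with 46.7 and 66.5 CPM (-0.51), and Pdha1 had -0.07. Of 30 other assembly factors, 26 passed with a median of 0.27, from Tmem126b (0.87) and Coa7 (0.71) to Cox16 (-0.47) and Ttc19 (-0.50). The carriers Slc25a4 and Slc25a5, which exchange ADP and ATP, had 0.84 and 0.57, Atpif1, the inhibitor of the ATP synthase, 0.44, and the uncoupling protein Ucp2 -0.01. Of 10 regulators of mitochondrial biogenesis, 7 passed: Tfb1m (1.23, at 10.9 and 4.64 CPM) and Yy1 (0.32) had the largest ratios and Gabpa (-0.12) and Myc (-0.32) the smallest. The coactivator Ppargc1a was nearly undetected, at 0.0219 and 0.234 CPM.

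The level of the members differed between dividing and low cycling cells far more in bone marrow than in fetal liver. Cells were called dividing with UMIs of at least 3 of 11 mitotic genes (such as Mki67, Top2a and Ube2c) and low cycling with none. Dividing cells made up 52.8% of fetal liver (51.7% to 53.9%) and 7.52% of bone marrow (6.93% to 8.15%), and low cycling cells 19.0% and 74.6%. These shares move with depth: after thinning each cell to 2000 UMIs, dividing cells were 25.4% and 4.98%, and low cycling cells 40.8% and 81.4%. In bone marrow, all members summed to 29394 CPM in low cycling cells, 32746 CPM in the cells between and 39708 CPM in dividing cells, a log2 ratio of 0.43 (0.43 to 0.44) for dividing over low cycling. In fetal liver the same 3 levels were 39427, 40743 and 42862 CPM, a ratio of 0.12 (0.12 to 0.13). Low cycling fetal liver cells thus had about the level of dividing bone marrow cells.

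The 2 libraries were therefore close in dividing cells and apart in low cycling cells. The ratio of fetal liver over bone marrow was 0.11 (0.10 to 0.12) in dividing cells and 0.42 (0.42 to 0.43) in low cycling cells. In dividing cells it was 0.16 for complex I, 0.19 for complex II, 0.08 for complex III, 0.05 for complex IV and 0.12 for complex V. Among members of at least 100 CPM, 4 of 71 were 1.5-fold higher in fetal liver in dividing cells, against 10.3% of all genes, and 23 of 69 in low cycling cells, against 22.2%. The 7 core subunits of complex I kept more of their difference, with ratios of 0.42 in dividing and 0.63 in low cycling cells. They were not alone in this. In complex III, Uqcrc1, Uqcrc2 and Uqcrfs1 had 0.56, 0.51 and 0.44 in dividing and 0.88, 0.63 and 0.48 in low cycling cells. The accessory complex I genes Ndufv3 and Ndufa9 each had 0.59 in dividing cells.

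Almost every well-expressed member had a larger division contrast in bone marrow. Of 71 members with at least 100 CPM, 70 did, against 66.2% of all 1585 genes at that level. The exception was Uqcrq, with a log2 ratio of dividing over low cycling of 0.28 in fetal liver and 0.08 in bone marrow. The median contrast of the 71 members was 0.13 in fetal liver and 0.45 in bone marrow, beside 0.03 and 0.15 for all genes. A 1.5-fold excess in dividing cells was reached by 21 of 70 members in bone marrow, against 24.4% of all genes, and by none of 71 in fetal liver, against 11.1%. Atp5k, a small membrane subunit of the ATP synthase, had contrasts of 0.32 in fetal liver and 0.91 in bone marrow. Uqcr10 had 0.21 and 0.81. Some members were lower in dividing cells of both libraries. In complex I these included Ndufa13 (-0.29 and -0.19), Ndufv3 (-0.26 and -0.12), Ndufa6 (-0.17 and -0.03) and Ndufs3 (-0.16 and -0.07). These complex I genes were higher in fetal liver over all cells. At 4000 to 8000 UMIs, Ndufa13 and Ndufv3 had 0.02 and 0.01 in bone marrow. Sdhaf4 (-0.28 and -0.04) and Sdhaf3 (-0.24 and -0.05) were lower in fetal liver over all cells. Uqcrh had 958 CPM in dividing and 1217 CPM in low cycling cells of fetal liver (-0.34), and 980 and 1214 CPM in bone marrow (-0.31). In cells of 4000 to 8000 UMIs, a range taken up below, these contrasts of Uqcrh were -0.28 and -0.20. Cox7a2l had -0.36 and -0.16, and -0.24 and -0.06 in that range. Sdhaf1 had contrasts of -0.63 and -0.51 over all depths, but -0.51 and 0.54 in cells of 4000 to 8000 UMIs. Cox7a1 had -0.68 and -0.70, but -0.11 and -0.95 in that range. Uqcrh, Sdhaf1 and Cox7a2l are also among the 6 members that were lower in fetal liver over all cells. Within low cycling cells their ratios of fetal liver over bone marrow were 0.00, 0.00 and 0.12, and in low cycling cells of 4000 to 8000 UMIs 0.11, 0.71 and 0.17.

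**Figure D3:**
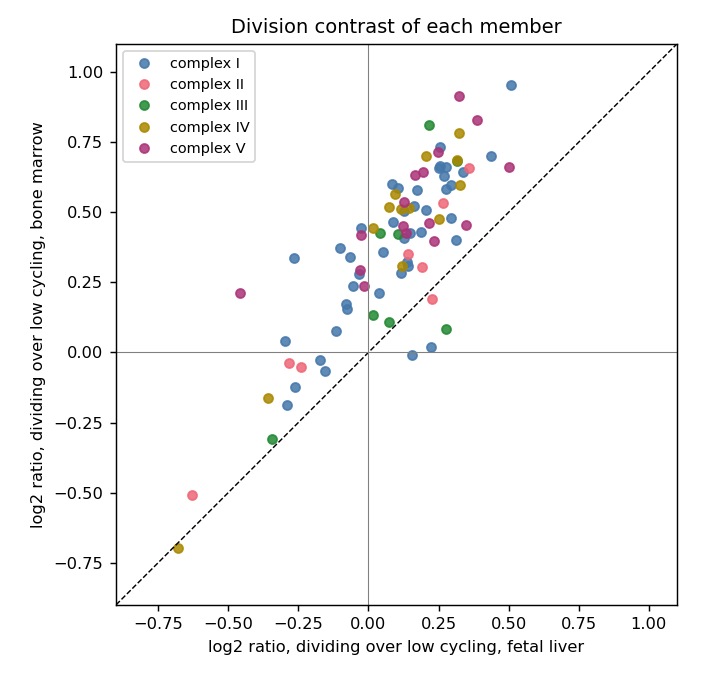
Log2 ratio of CPM in dividing over low cycling cells, in fetal liver (horizontal axis) and bone marrow (vertical axis), 1 point for each of the 88 members with at least 10 CPM, coloured by complex; the dashed line marks equal contrasts. Most points lie above the line, and, at all depths together, the points at the lower left with both contrasts under -0.5 are Cox7a1 and Sdhaf1.

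Dividing cells were deeper than low cycling cells, with median UMIs of 12164.5 against 5812.5 in fetal liver and 7933 against 3035 in bone marrow, and depth moves with the level of the members. From cells under 2000 UMIs to cells of 16000 or more, all members rose from 25871 through 29048, 32008 and 37010 to 40401 CPM in bone marrow, where the share of dividing cells rose from 0.375% to 82.6%, and from 40003 to 43089 CPM in fetal liver. The last bone marrow bin held 23 cells. Among cells of 4000 to 8000 UMIs, the contrast of dividing over low cycling was 0.37 in bone marrow and 0.11 in fetal liver, and fetal liver over bone marrow was 0.13 in dividing and 0.39 in low cycling cells. Calling the gates on cells thinned to 2000 UMIs gave contrasts of 0.36 and 0.06, beside 0.43 and 0.12 with all UMIs. Within low cycling cells alone, bone marrow rose with depth from 25834 CPM under 2000 UMIs to 32507 CPM at 8000 to 16000 UMIs, while fetal liver went from 39028 to 38773 CPM, so the libraries were apart in each range.

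**Figure D4:**
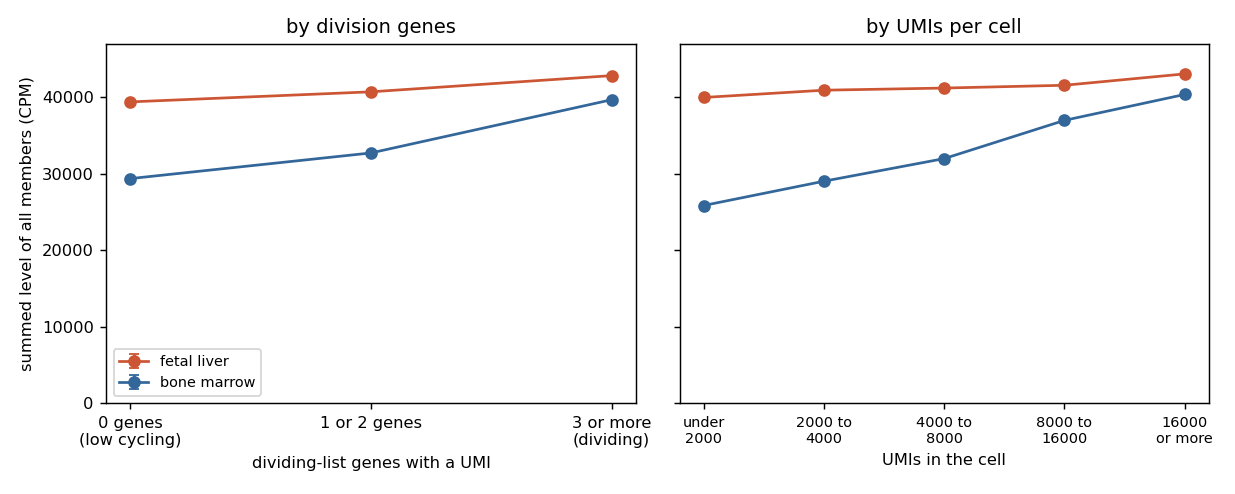
Summed level of all 95 members (CPM, from 0) by the number of dividing-list genes with a UMI (left, with 95% counting intervals smaller than the points) and by the UMIs of the cell (right), for each library. The fetal liver line is nearly flat, from 39427 to 42862 CPM on the left, and the bone marrow line climbs toward it from 29394 to 39708 CPM with division and from 25871 to 40401 CPM with depth.

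Cells were also grouped by lineage markers, a cell entering a gate with UMIs of at least 2 genes of 1 list and of no other list. In fetal liver and bone marrow, 814 and 60 cells fell in the LTi or ILC3 gate (lymphoid tissue inducer or group 3 innate lymphoid cells, by genes such as Il22 and Tnfsf11), 597 and 1573 in the ILC2 gate (Icos, Areg, Il1rl1), 1561 and 540 in the NK or ILC1 gate (Nkg7, Klrd1) and 586 and 1002 in the PLZF gate of ILC progenitors (Zbtb16, Tox2, Pdcd1). No gate was entered by 1830 and 3331 cells, and 2750 (32.0%) and 386 (5.32%) had markers of several lists. The cells with several had medians of 12001 and 5495 UMIs. After thinning to 2000 UMIs they numbered 207 and 69, and cells in no gate 5523 and 3998, so membership moves strongly with depth. Cells with several may include doublets, since none were removed. The part of either in the results was not tested.

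Every shared gate had a higher summed level of members in fetal liver. In the PLZF gate the levels were 41176 and 29578 CPM (log2 ratio 0.48, 0.47 to 0.49), in the ILC2 gate 43720 and 31687 CPM (0.46, 0.46 to 0.47), in the LTi or ILC3 gate 42592 and 32638 CPM (0.38, 0.35 to 0.42) and in the NK or ILC1 gate 41576 and 33563 CPM (0.31, 0.30 to 0.32). Of the 88 members, 73 were higher in fetal liver in all 4 gates, against 30.9% of all genes of at least 10 CPM. Sdhaf4 alone was higher in bone marrow in all 4, against 27.5%. Most members are well-expressed genes, and these shares were not matched for level. At 100 CPM or more in a gate, 66 of 70 members were higher in fetal liver in the LTi or ILC3 gate (63.1% of all genes). It was 67 of 71 in the ILC2 gate (63.6%), 67 of 70 in the NK or ILC1 gate (66.8%) and 69 of 71 in the PLZF gate (64.7%). Among members of at least 100 CPM, those past 1.5-fold in fetal liver numbered 22 of 70 in the LTi or ILC3 gate (25.2% of all genes), 32 of 71 in the ILC2 gate (33.5%), 31 of 71 in the PLZF gate (29.8%) and 8 of 70 in the NK or ILC1 gate (19.9%). Atp5b had log2 ratios of 1.06, 1.11, 0.52 and 0.97 in the LTi or ILC3, ILC2, NK or ILC1 and PLZF gates. The mitochondrially encoded genes had ratios of 0.02, -0.27, 0.00 and -0.09 in the same order.

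**Figure D5:**
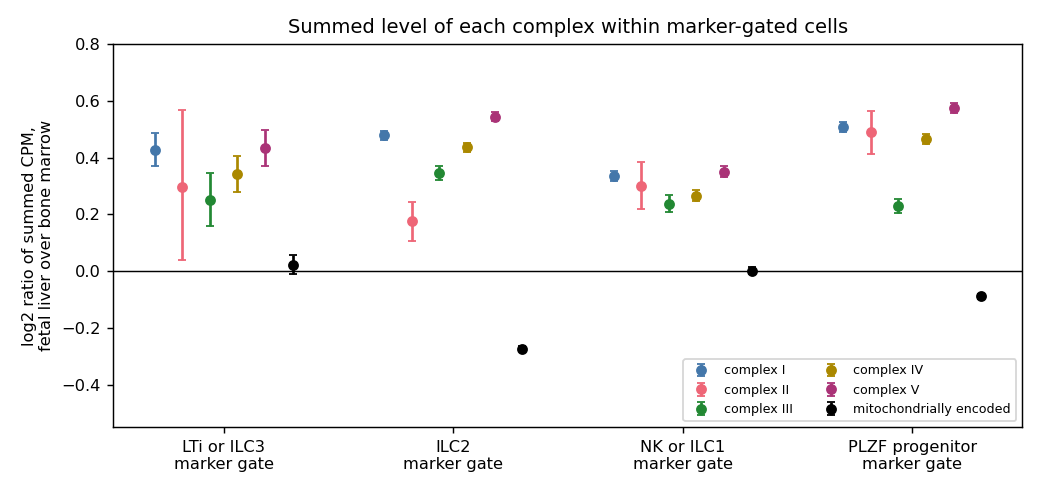
Log2 ratio of summed CPM, fetal liver over bone marrow, for each complex and for the mitochondrially encoded genes in the 4 lineage gates; bars are 95% counting intervals. The 5 nuclear complexes lie above 0 in each gate, the mitochondrial point lies between -0.27 and 0.02, and the interval of complex II is widest in the LTi or ILC3 gate, which held 60 bone marrow cells.

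The gates also differ in division, from 26.8% dividing cells in the LTi or ILC3 gate to 63.5% in the ILC2 gate of fetal liver, and from 1.40% to 8.33% in bone marrow. Restricted to low cycling cells, the ratio of all members was 0.44 in the PLZF gate (144 and 754 cells), 0.44 in the ILC2 gate (80 and 1290 cells), 0.37 in the LTi or ILC3 gate (286 and 44 cells) and 0.33 in the NK or ILC1 gate (238 and 376 cells). In dividing cells it was 0.15 in the ILC2 gate (379 and 113 cells) and 0.01 (-0.01 to 0.03) in the NK or ILC1 gate (923 and 45 cells), and the other gates had under 30 dividing bone marrow cells. In both of these gates the ratio was larger in low cycling than in dividing cells. Gates with enough cells in only 1 library had levels of 44370 CPM (myeloid, 103 cells), 44076 CPM (erythroid, 96 cells) and 38010 CPM (B lineage, 164 cells) in fetal liver, and 35480 CPM in the Dntt or Ly6d lymphoid progenitor gate of bone marrow (300 cells, 33.7% dividing). Leaving out cells in the B, T, myeloid, mast or basophil, erythroid, hepatocyte and stromal gates gave 0.41 for all members.

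Several subunits come as isoforms. The c ring genes Atp5g1, Atp5g2 and Atp5g3, which encode the same mature protein behind different import signals, had shares of their joint UMIs of 31.7%, 43.4% and 24.9% in fetal liver and 28.2%, 47.8% and 23.9% in bone marrow. Their log2 ratios were 0.71, 0.40 and 0.60. Of the Cox7a family, Cox7a2 held 86.8% and 83.2%, Cox7a2l 12.1% and 16.0%, and the heart and muscle form Cox7a1 1.12% and 0.743%. Cox7a1 was low in both libraries, with 12.7 and 7.05 CPM (0.85, 0.64 to 1.07), and its ratio was 1.15 in dividing and 1.13 in low cycling cells (0.33 in low cycling cells of 4000 to 8000 UMIs). Cox6b2 held 3.93% and 5.30% of the Cox6b family. Cox4i2, the lung and hypoxia form, held 0.265% and 0.0598% of the Cox4i family, with 255 and 13 UMIs (2.79 and 0.434 CPM, log2 ratio 2.69). Of its fetal liver UMIs, 14.1% lay in the 103 cells of the myeloid gate, a gate that few cells entered. Cells with markers of several lists held 32.2% of them and cells in no gate 25.9%.

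Members that did not reach 10 CPM were few. Besides Cox4i2 these were Ndufaf5 (8.93 and 7.11 CPM), Atp5s (5.71 and 6.08 CPM) and Ndufa4l2, a form known from hypoxia, with 53 UMIs in 28 fetal liver cells and 0 in bone marrow, where a count of 0 allows up to 0.100 CPM. Of its UMIs, 60.4% lay in 10 cells, 37.7% in cells with markers of several lists and 30.2% in the ILC2 gate. Cox7b2, Cox8b and Cox8c had 0 UMIs in both libraries, which allows up to 0.0329 and 0.100 CPM. The sources used here do not say how reads shared by near-identical copies were counted, and many of these genes have processed pseudogenes, so small differences between family members are uncertain.

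Thinning each cell to 2000 UMIs removed the gap in depth and left the direction. A UMI was then found in a larger share of fetal liver cells for 83 of 88 members, against 50.9% of all genes. Atp5b was found in 50.5% and 32.5% of cells, unthinned 88.8% and 50.6%, and Uqcrh in 87.4% and 89.6%, unthinned 99.3% and 95.6%. No cell type in these libraries should lack these genes, so no share of background from free RNA could be set beside them. Thinning left out 131 fetal liver and 1335 bone marrow cells with fewer UMIs.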

How the data were processed

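The deposited matrices hold whole-number UMI counts per gene and cell for 2 libraries, 1 for each tissue; per the labels' protocols, 3' droplet libraries (v2 chemistry) were counted by UMI and barcodes not tied to cells were removed before deposit. Per the submitters' processing notes the build was mm10 and Seurat 4.0 was used; the file headers name matrix software 3.0.1. Aligner and annotation: not given in the sources used here. Deposited barcodes numbered 8946 and 7367, with 91781395 and 30039931 UMIs in fetal liver and bone marrow; 363 and 109 cells were removed by the filters. No doublet caller was run.

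UMIs were summed over kept cells and scaled to CPM, and log2 ratios with exact conditional binomial 95% intervals were computed in Python 3.11.15 (numpy 2.4.6, scipy 1.17.1, pandas 2.3.3), after the interval and the thinning had been tested on simulated data. Shares have exact Clopper-Pearson intervals. A fold of 1.5 among genes with at least 10 CPM (100 CPM in gates) in the higher library counts as a difference; with 1 library per tissue there is no test and no p-value. Named genes were, per complex, the 3 largest and 3 smallest ratios, the core subunits, the isoform families and the members under 10 CPM, and from the other lists the extremes; genes named for their pattern across gates or division were chosen after their values were seen. Members, gene lists and marker lists were chosen with earlier results of these data known. TMM factors came from edgeR 4.0.16. The annotation of transcripts was GENCODE M21. Alternatives covered scaling, cell filters, thinning, division and gates. Values of 1 member are not reported here.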

Additional observations from a re-analysis of the deposited data

Results flagged for a closer look

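Of the 88 members with at least 10 CPM, 14 did not keep 1 sign of the log2 ratio (fetal liver over bone marrow) across the 4 lineage gates, beside 41.6% of all genes. That share is over genes of at least 10 CPM and was not matched to the mostly higher levels of the members. The 4 named here passed a set fold in both directions, with counting intervals that left out 0, and no share of all genes was computed for that stricter rule. The difference between gates was not tested, since each gate is 1 group of cells in 1 library. Ndufaf4, a complex I assembly factor, had -0.533 in the NK or ILC1 gate (75.4 and 109 CPM) and 0.713 in the ILC2 gate (86.0 and 52.5 CPM). Cox6b2 had -0.501 in the NK or ILC1 gate and 1.19 in the ILC2 gate, on 77 bone marrow UMIs in each. Sdhaf1, a complex II assembly factor, had -1.22 in the ILC2 gate (62.1 and 145 CPM) and 0.478 in the PLZF gate (59.1 and 42.4 CPM), so its level in bone marrow differed more between gates than its level in fetal liver. Uqcrq, a small complex III subunit, had -0.374 in the LTi or ILC3 gate (246 bone marrow UMIs) and 0.666 in the ILC2 gate (1291 and 814 CPM).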

How the results depend on the processing

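No paired analysis was possible because each tissue is 1 library. In every alternative run, the summed level of each complex stayed higher in fetal liver. Values are log2 ratios for all members and then complexes I to V unless fewer are named; the causes of these shifts were not tested. A median-ratio factor moved every ratio by 0.16 and TMM by 0.14: all members 0.57 and complexes 0.60, 0.52, 0.39, 0.54 and 0.63 with the former (55 members past 1.5-fold, median 0.64), and 0.54 with 0.57, 0.50, 0.37, 0.52 and 0.60 with the latter (48 members, median 0.62). Both factors shift all genes by the same amount, so more genes of every kind can pass 1.5-fold in fetal liver. The counts of members past 1.5-fold in this section are given without a share of all genes and cannot be compared with other genes. A total without mitochondrial and ribosomal protein genes gave 0.37 with 0.41, 0.33, 0.20, 0.35 and 0.44. Weighing each cell the same gave 0.48, with 0.51 for I, 0.29 for III, 0.47 for IV and 0.54 for V, and a median of 0.55. Cells with at least 1000 genes gave 0.37, with 0.41 for I, 0.19 for III, 0.34 for IV and 0.43 for V, 17 members and a median of 0.44. Without the 5% of cells with the most UMIs the values were 0.45, and 0.47 for I, 0.24 for III, 0.43 for IV and 0.52 for V; thinned to 2000 UMIs they were 0.44, and 0.48 for I, 0.42 for IV and 0.51 for V. Low cycling cells gave 0.42, with 0.48 for I, 0.39 for IV and 0.47 for V. Dividing cells gave the lowest values, 0.11 with 0.16, 0.19, 0.079, 0.046 and 0.12, 6 members and a median of 0.18. The 4 shared gates weighed the same gave 0.31 for II, 0.27 for III, 0.37 for IV and 0.47 for V. Without the other lineages, all members had 0.41 and complex I 0.45.

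Alternatives added after seeing the data were cells of 4000 to 8000 UMIs, and subunits only with Ndufa4 in complex IV. The former gave 0.37 for all, 0.45 for I, 0.16 for III, 0.31 for IV and 0.41 for V, with a median of 0.41. Cox6b2 had -1.09 there (20.9 and 44.5 CPM). The latter gave 0.42 for I, 0.62 for II and 0.40 for IV. Gates on thinned cells gave 0.47 for ILC2 and 0.50 for PLZF, and 0.063 and 0.36 for dividing over low cycling in fetal liver and bone marrow, where the 4000 to 8000 range gave 0.11 and 0.37. The LTi or ILC3 gate was not run on thinned cells, with 27 bone marrow cells. A count of 3 UMIs is 0.0329 and 0.100 CPM, and limits only the members under 10 CPM.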

Other observations

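The mitochondrially encoded genes and division moved apart from the nuclear members. In dividing over low cycling cells their summed level had a log2 ratio of -0.28 in fetal liver (27062 and 32792 CPM) and -0.19 in bone marrow (28378 and 32332 CPM), where the nuclear members had 0.12 and 0.43. Among cells of 4000 to 8000 UMIs, the mitochondrial values were 0.02 and -0.08. In fetal liver the mitochondrial level fell from 44889 CPM in cells of 2000 to 4000 UMIs to 25861 CPM in cells of 16000 or more.

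Ribosomal protein genes, another large group of housekeeping genes, differed little between the libraries in their sum, with 334143 and 344388 CPM (log2 ratio -0.04). The median was 0.11 over the 91 genes with at least 10 CPM. Single genes spread from -1.01 to 4.28. A 1.5-fold excess was reached by 14 of the 91 in fetal liver (19.2% of all genes) and by 4 in bone marrow (23.2%). The sign of the sum turns to 0.12 with the median-ratio factor and 0.09 with TMM.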
